A study of Arabidopsis thaliana with 5 samples.

Results

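The comparison concerned rosette leaves of wild-type (WT) Arabidopsis thaliana, ecotype Col-0, sampled in recovery (R), 24 h after normal watering was restored, against leaves sampled under water stress (WS), after 5 days without irrigation. Both were single samples out of a series of 5 two-colour spotted oligonucleotide arrays. On every array the WT leaf RNA was labelled with Cy3 and the RNA of a transgenic line with Cy5, so the WT values were taken from the Cy3 channel alone. All plants were 5 weeks old and grown at a constant temperature with long days. The WS and R slides carried leaves of line EL25 in the Cy5 channel, a homozygous Col-0 line overexpressing AhERF-VII, a group VII ethylene response factor of grain amaranth, given the same treatment as the WT plants. EL25 is 1 line, and the promoter of its transgene was not given in the sources used here. Leaves in optimal growth (Op) conditions were hybridized on 2 further arrays, the first beside EL25 and the second beside a line overexpressing the amaranth factor AhDof-AI. These 2 WT samples supplied the only measure of spread between WT arrays, and that measure applies to Op leaves. The fifth array, of salt stress, was not used. WS and R had 1 array each and no test was made, so "higher" or "lower" below means a difference between 2 arrays past 2-fold.

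The array held 29234 gene spots naming 26017 loci. Of these, 23781 loci were above background in the WT channel under WS or in R and were compared, and 18359 were compared in the EL25 channel.

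Drying leaves accumulate abscisic acid (ABA), the hormone that closes stomata and switches on dehydrins and other protective proteins, and they build up proline as a compatible solute. After rewatering, ABA is broken down by CYP707A hydroxylases, proline is oxidised by proline dehydrogenases, and cell expansion, photosynthesis and cell division resume. The question put to these arrays was which loci returned from the stressed level, which went on in the same direction, and which moved only once water was given back. Whole leaves were extracted, so fewer cells of a type and less RNA per cell cannot be told apart.

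Several properties of the slides bear on every value below. The median intensity of the gene spots, after background subtraction, was 794.7 in the WT channel under WS and 431.6 in R, and was 1399.2 and 1459.6 on the Op arrays, and the arrays were scaled to each other before comparison. The share of spots with a signal above background ran from 77.4 to 86.0% in the WT channels and from 61.1 to 65.3% in the EL25 channels. Of the 26017 loci, 24091 were printed on 1 spot. Over the 1464 identifiers printed on exactly 2 gene spots, the WS levels of the paired spots were nearly unrelated (r = 0.07 across identifiers), and so were their differences between R and WS (r = 0.10 over 1233 pairs). The 51 nuclear photosynthesis loci, which mark leaf tissue, had a median brightness at the 55.4th percentile of all loci under WS, and 4 of them lay in the brightest 10%. The 12 root markers lay at the 59.8th percentile and the 15 seed and pollen markers at the 66.4th. Levels of different oligonucleotides are not comparable, so these ranks do not settle which tissue was sampled. Values therefore belong to the spots carrying each name, and whether they are those transcripts was not tested.

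A second property was position on the slide. The spots were printed in 48 sub-grids, 12 rows by 4 columns, and the median difference between R and WS in a sub-grid ran from -0.62 to 1.07 (log2). Sub-grid rows 11 and 12 were high. They held 16.9% of the gene spots, yet 61.5% of all spots that read at least 2-fold higher in R and 0.663% of those that read at least 2-fold lower. The EL25 channel of the same slides showed the same areas, with sub-grid medians from -0.90 to 1.54. For the 2 Op arrays the medians ran from -0.64 to 0.81. Because of this, the counts are also given after the levels were centred within each sub-grid, and for single loci the centred difference is given where it falls on the other side of 2-fold. The correction assumes that the loci of every sub-grid had the same median change. Horizontally neighbouring spots, which carry different loci, had correlated differences (r = 0.49 over 23046 pairs). Centring lowered that correlation to 0.18 without removing it. The 144 spots of 11 identifiers that were printed many times all lay in the last line of their sub-grid. Their pooled SD of the difference within an identifier was 1.01, or 0.77 after centring, against 0.80 and 0.64 over all loci compared. A 2-fold difference was thus about as large as the SD among these replicate spots. Whether that SD holds for spots elsewhere in a sub-grid was not tested.

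**Figure D1:**
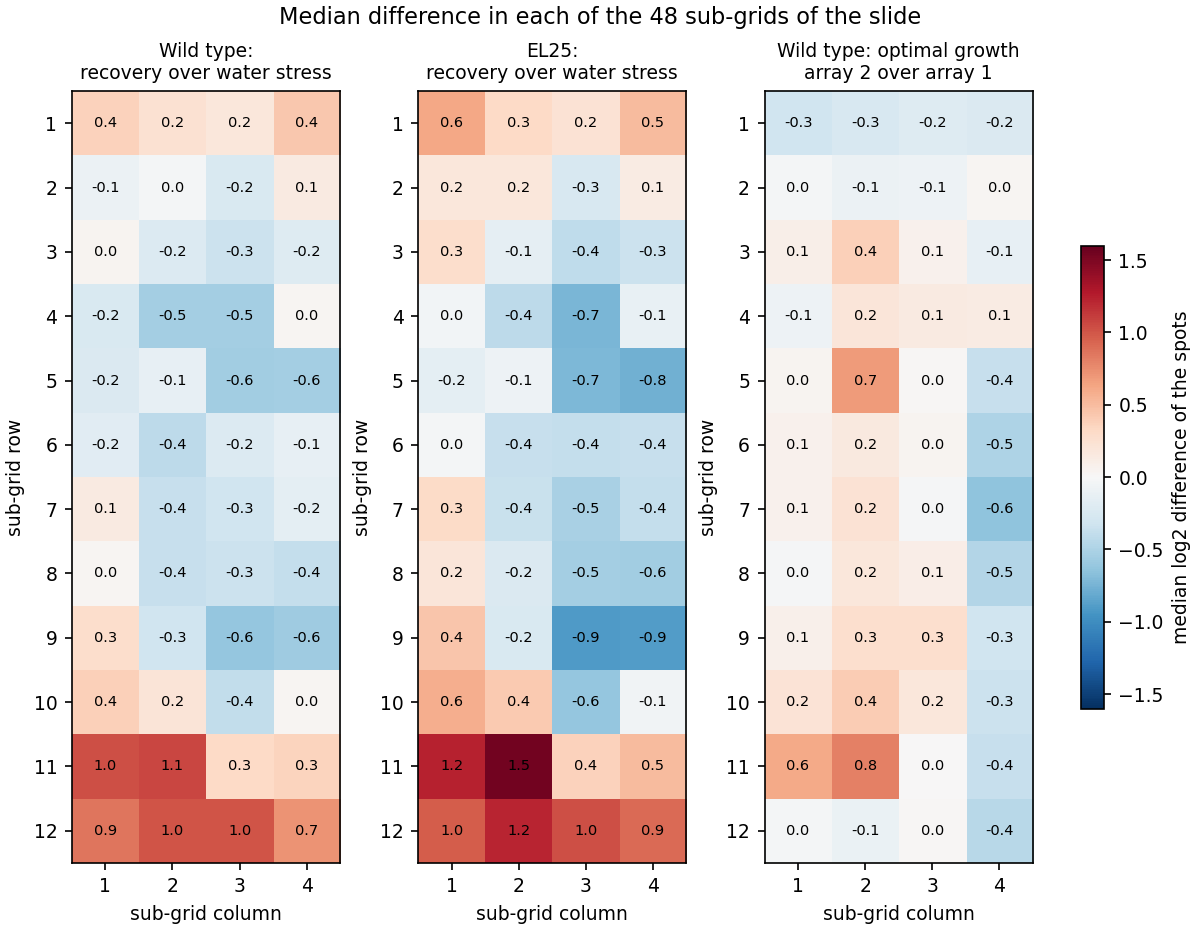
Median log2 difference of the gene spots above background in each of the 48 sub-grids, drawn by sub-grid row and column, for WT leaves in recovery over water stress (left), EL25 leaves in the same comparison (middle) and the 2 WT optimal growth arrays (right). Rows 11 and 12 read high in both channels of the recovery and water stress slides, up to 1.07 in WT and 1.54 in EL25.

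Across loci, 2366 of 23781 (9.95%) read at least 2-fold higher in R than under WS in WT leaves and 2146 (9.02%) at least 2-fold lower. The SD of the difference over loci was 0.80, compared with 0.66 between the 2 Op arrays, where 11.3% of loci differed by 2-fold in either direction. The difference between WS and Op leaves was no wider than that between the Op arrays, with an SD of 0.65 against the first and 0.60 against the second. The R array stood further from all the others, with SDs of 0.88 and 0.80 against the Op arrays. After centring by sub-grid, 1333 loci (5.61%) read higher in R and 1175 (4.94%) lower, and the SD fell to 0.64, against 0.59 for the Op arrays. Centred in this way, 10.5% of loci differed by 2-fold in either direction between R and WS and 8.16% between the Op arrays. The centred R array still stood further from the Op arrays, with SDs of 0.767 and 0.715 and with 16.3 and 14.3% of loci past 2-fold. Of the 2366 loci, 1018 still read at least 2-fold higher after centring, and of the 2146 loci 1023 still read lower.

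In EL25 leaves, 2338 loci (12.7%) read at least 2-fold higher in R and 2168 (11.8%) lower. Both genotypes gave 1785 loci higher, which was 80.6% of the WT loci that were also measured in EL25 and 76.3% of the EL25 loci. They gave 1470 loci lower, 71.2% and 67.8% of the respective sets. No locus passed 2-fold in opposite directions. The genotypes shared the slides, so these counts are not independent of each other. The WT and EL25 differences correlated at r = 0.93 over 20166 spots, including spots whose names repeat. A correlation of the same size, r = 0.92, was found between the WT and transgenic channels of the 2 Op slides, where leaves of different lines were compared under 1 condition. The 2 channels of a pair of slides thus moved together where the treatment differed and where it did not. With and without centring and in both channels, 699 loci read higher and 630 lower.

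**Figure D2:**
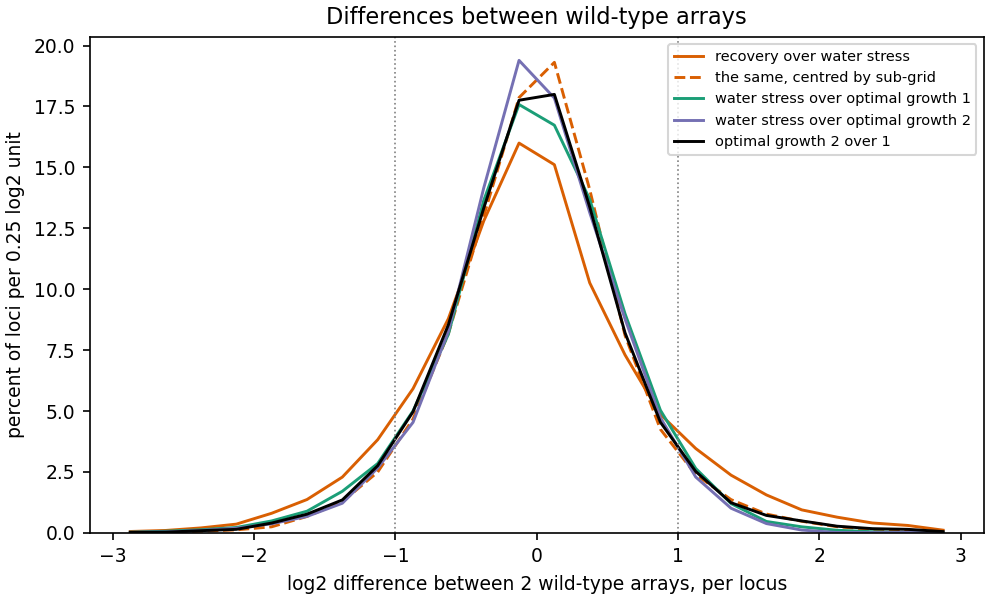
Distribution over loci of the log2 difference between pairs of WT arrays, in percent of loci per 0.25 log2 unit; dotted lines mark 2-fold. The curve for recovery over water stress (SD 0.80) is wider than those for water stress over optimal growth (0.65 and 0.60) and for the 2 optimal growth arrays (0.66), and the curve centred by sub-grid (dashed) has an SD of 0.64, where the centred optimal growth pair, not drawn, has 0.59.

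Among loci above background in both channels of both slides, the 10 that read highest in R relative to WS differed by 9.60 to 26.2-fold, and the 10 that read lowest by 6.63 to 15.4-fold. Each was printed on 1 spot. All 20 passed 2-fold in EL25 and after centring by sub-grid. Of the 10 high loci, 6 lay in sub-grid rows 11 and 12. The largest difference was that of TAFII59, a subunit of the general transcription factor TFIID, which read 458 under WS and 11994 in R. It read 446 and 2060 on the Op arrays, so the 2 samples of 1 condition already differed widely. ZKT, a chloroplast protein with a PDZ domain, lay outside the high rows and read 2084 under WS against 25882, 25344 and 22757 on the first and second Op arrays and in R. In EL25 it read 29983 in Op leaves, 2023 under WS and 22671 in R. The WS sample alone was low in both genotypes. GA20OX4, which encodes a gibberellin 20-oxidase of hormone synthesis, read 973 under WS and 12252 in R, compared with 2220 and 2851 in Op leaves. PHT1;3, a phosphate transporter, read 696 under WS and 6682 in R, with 616 and 2045 on the Op arrays.

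At the other end, UGT84A3, a sinapate glucosyltransferase of phenylpropanoid metabolism, read 18913 and 9311 in Op leaves, 11694 under WS and 1160 in R. CBL8, a calcineurin B-like calcium sensor, read 1505 and 3516 in Op leaves, 6809 under WS and 925 in R. INV-E, a plastid invertase, read 1722, 2908, 5154 and 705 on the same 4 arrays. The R sample was the lowest of the 4 WT samples for each of these 3 loci. AT5G11960 and AT3G55310, for which the files gave no description, were the 2 largest differences, from 11497 to 745 and from 22668 to 1775. EXO70D1, a subunit of the exocyst of secretion, read 3640 and 3632 in Op leaves, 4323 under WS and 640 in R.

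The path from Op leaves through WS to R was followed over the 24081 loci that were above background on at least 1 of the 4 WT arrays. A locus counted as changed under WS where it read at least 2-fold higher, or at least 2-fold lower, than both Op arrays. This held for 628 loci (2.61%), 286 of them higher and 342 lower. Both steps of the path used the same WS array, so an error on that array enters them with opposite signs and counts as a reversal. Of the 286 loci that were high under WS, 104 (36.4%) read at least 2-fold lower in R, 17 read at least 2-fold higher still, 67 stayed within 2-fold of the WS level and at least 2-fold above both Op arrays, and the remaining 98 lay between. Of the 342 loci that were low under WS, 142 (41.5%) read at least 2-fold higher in R, 6 read lower still, 70 stayed low and 124 lay between. Reversals thus numbered 246 and continued changes 23. These counts rested on both Op arrays. Without the first, 217 loci reversed after a rise, 538 reversed after a fall, 40 kept rising and 25 kept falling, and without the second the counts were 330, 321, 92 and 60. A far larger set was within 2-fold of both Op arrays under WS and differed by 2-fold between WS and R. It held 3183 of the 24081 loci, 1555 higher and 1628 lower in R. Of the 1555, 771 were at least 2-fold above both Op arrays in R and 378 were within 2-fold of both. Of the 1628, 687 were at least 2-fold below both in R and 416 were within 2-fold of both. Over all loci compared, 19.0% differed by 2-fold between R and WS.

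Most reversals ended near the starting level. In R, 96 of the 104 loci that reversed from a high WS level were within 2-fold of both Op arrays, and 4 were at least 2-fold below both. Of the 142 that reversed from a low level, 115 were within 2-fold of both Op arrays and 6 were at least 2-fold above both. Over all loci compared, 21.3% differed by 2-fold between R and the first Op array and 18.6% between R and the second. A reversal was defined by a step back from the WS level, so an end near the Op level is partly set by the definition. The 2 sets of reversals differed in position, with 1 of the 104 and 59 of the 142 wholly within sub-grid rows 11 and 12. Those rows held 15.6% of the loci. In EL25, where 1 Op array was available, 72 of the 104 and 100 of the 142 took the same path. After centring by sub-grid the counts were 54 and 65, and 39 of the 104 and 57 of the 142 loci remained among them. Of the 246 reversals, 96 were thus found with and without centring.

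Loci that were high under WS alone included SK19, an SKP1-like subunit of ubiquitin ligases, which read 1176 and 1511 in Op leaves, 4537 under WS and 932 in R. SDN2, a nuclease that degrades small RNAs, read 504, 842, 2516 and 691 on the same arrays. SDN2 read 3.64-fold lower in R than under WS in WT and 8.36-fold lower in EL25. AT5G28410 and AT2G22100, which carried no description, read 2162 and 2272 under WS and no more than 747 on any other WT array. For these 4 loci the 2 Op arrays and the R array all lay at least 2-fold below the WS array.

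Loci that were low under WS alone were led by ZKT. AT3G59650, AT1G19397 and AT2G39040 followed, and carried no description in the files. AT2G39040 read 2828 and 1493 in Op leaves, 339 under WS and 3492 in R. AT1G19397 read 1876 and 2467 in Op leaves, 354 under WS and 3976 in R, above both Op samples. In EL25 both were below background under WS, and R was at least 8.36-fold higher for AT1G19397 and at least 9.48-fold higher for AT2G39040.

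Continued changes were few, and most of those upward lay in 1 area of the slide. Of the 17 loci that kept rising, 12 were wholly within sub-grid rows 11 and 12. NPC3, a non-specific phospholipase C, read 622 and 715 in Op leaves, 1664 under WS and 4029 in R, and EXT11, named as an extensin of the cell wall, read 581, 447, 1359 and 3593. AT2G35585 read 426 and 469 in Op leaves, 1236 under WS and 4776 in R. After centring, the step from WS to R was 0.33 for NPC3, 0.46 for EXT11 and 0.94 for AT2G35585, and 3 of the 17 loci remained in the class. Of the 6 loci that kept falling, AT3G18600 read 3531 and 6130 in Op leaves, 1198 under WS and 386 in R. MBP1, a myrosinase-binding protein of glucosinolate defence, read 2110, 1860, 834 and 348 on the same 4 arrays. Centring left 2 loci in this class, both among those 6, namely AT3G18600 and AT5G03830 but not MBP1. In EL25, 14 of the 17 loci that kept rising took the same path, and 1 of the 6 that kept falling, AT3G18600. MBP1 stayed low there.

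Loci that stayed at the stressed level included CYP705A23, a cytochrome P450, at 465 and 475 in Op leaves, 1213 under WS and 2206 in R. GDU6, a small membrane protein of the glutamine dumper family, read 1269, 1509, 3704 and 3869. ELF3, a component of the evening complex of the circadian clock, read 518 and 680 in Op leaves, 2698 under WS and 1370 in R, a difference of -0.98 that stopped just short of 2-fold. In EL25 ELF3 read 2.67-fold lower in R and so counted as a reversal. After centring, ELF3 and GDU6 left the class in WT. Of the 67 loci that stayed high, 51 took the same path in EL25 and 30 remained after centring. Of the 70 that stayed low, 48 and 26 did. Among those that stayed low, TOP1ALPHA, a DNA topoisomerase I, read 4826 and 2908 in Op leaves, 917 under WS and 1022 in R. AT5G35475 read 10354, 10622, 2548 and 2351, with the 2 Op samples close together and well above the other 2. The differences between WS and R, 0.15 for TOP1ALPHA and -0.12 for AT5G35475, were smaller than the SD of 0.66 between the Op arrays.

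Of the loci that differed only after rewatering, AT3G23750 read 417 and 330 in Op leaves, 575 under WS and 10229 in R. It lay in sub-grid row 5, and its difference of 4.15 (log2) became 4.77 after centring. NPR4, a receptor of salicylic acid, read 418 and 763 in Op leaves, 404 under WS and 3531 in R, and RTL2, an RNase III-like protein, read 365, 397, 475 and 3719. Both lay in rows 11 and 12, as did 58.4% of the loci of this class, and after centring their differences were 2.14 and 1.96. On the lower side, RGLG4, a RING-type ubiquitin ligase, read 1730, 1799, 2391 and 307, and DJ1B, a DJ-1 family protein, read 1792, 1256, 2152 and 298. For both, the R sample was the only one of the 4 that was low. In EL25 the R level of both was below background, at least 3.87-fold lower than WS for RGLG4 and at least 3.24-fold lower for DJ1B.

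**Figure D3:**
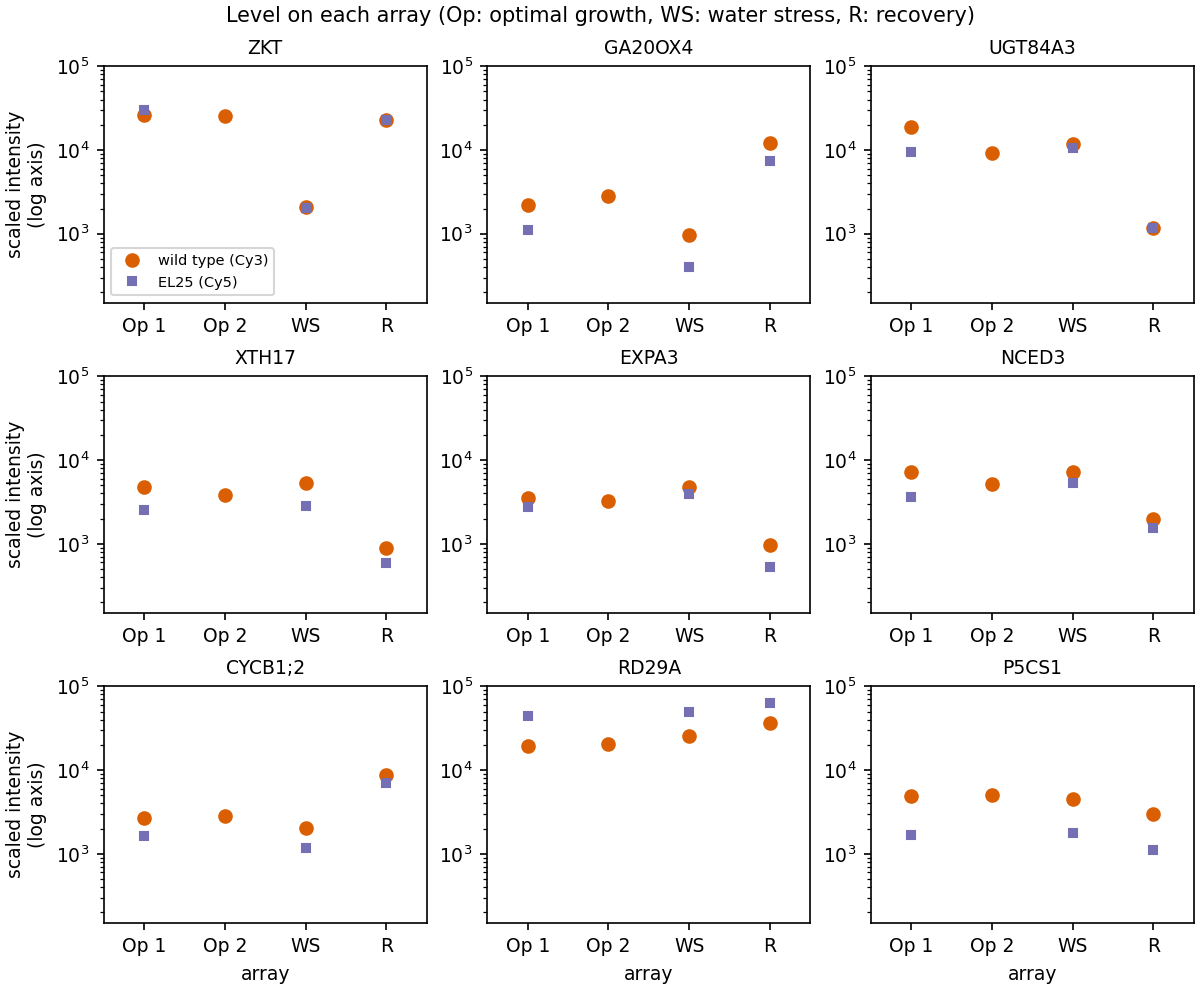
Scaled intensity (log axis) of 9 loci on the optimal growth arrays (Op 1, Op 2) and under water stress (WS) and in recovery (R), with WT in circles and EL25 in squares; 1 point is 1 array, and the 2 genotypes were scaled separately. ZKT is low under water stress alone, GA20OX4 and CYCB1;2 are highest in recovery, UGT84A3, XTH17, EXPA3 and NCED3 are lowest in recovery, and RD29A and P5CS1 lie within 2-fold between the water stress and recovery arrays on this uncentred scale (RD29A differs by 1.12 in WT after centring).

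Gene lists of the dehydration and rehydration response were read against these backgrounds. In 22 lists, 424 loci were measured in WT leaves and 76 of them (17.9%) passed 2-fold, 41 higher and 35 lower, against 19.0% over all loci. The count of each list below stands against the shares over all loci, 9.95% higher and 9.02% lower. Of the 41, 24 were wholly within sub-grid rows 11 and 12. Of the 76, 60 passed in EL25 in the same direction and 33 passed after centring. Only 19 passed in both genotypes with and without centring. The list medians lay between -0.43 and 0.45, with 4 of them above 0 and 4 below 0 under each of 10 settings and the other 14 of either sign. With the detection limit raised to the 99th percentile of the empty spots, the differences of AT3G18600, FSD3, SPS4F, HSFA1A, VSP1 and GLN1;1 turned positive, because levels under the limit were raised to it and the limit lay at 1701.4 in R and 1084.8 under WS.

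Of 37 dehydration and ABA induced genes measured, 2 read higher in R (5.41%) and 2 lower (5.41%), against 9.95 and 9.02% over all loci. Their median difference was 0.00 in WT (all loci -0.04), -0.17 after centring and 0.30 in EL25, and ranged from -0.20 to 0.34 over the settings. RD29A, whose promoter carries drought and ABA elements, read 19218 and 20532 in Op leaves, 25478 under WS and 36801 in R. RAB18, an ABA-induced dehydrin, read 15401, 19353, 21315 and 17120. RD29B read 1110, 2489, 1708 and 2040. All 3 lay within 2-fold between WS and R, and none of them was 2-fold above both Op arrays under WS. After centring, however, RD29A passed 2-fold upward, at 1.12 in WT and 1.08 in EL25, against 0.53 and 0.36 before. ERD1, a regulatory subunit of the plastid Clp protease, had the largest difference of the group, at 508 in R against 1986 under WS and 1671 and 1098 in Op leaves. ERD14, a dehydrin, read 4065, 8995, 8194 and 3386. COR47, another dehydrin, read 1253 and 872 in Op leaves, 1503 under WS and 3185 in R. ERD1 and ERD14 still passed 2-fold in WT after centring, and COR47, at 0.74, did not.

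ABA metabolism was represented by NCED3, the rate-limiting dioxygenase of stress-induced ABA synthesis, which read 7225 and 5155 in Op leaves, 7108 under WS and 1997 in R. The difference was -1.83 in WT, -1.77 in EL25 and -1.24 in WT after centring. Its WS level lay between those of the 2 Op samples. The ABA 8'-hydroxylases read alike in both states, with 468 under WS and 673 in R for CYP707A1 and 951 and 1000 for CYP707A3. SLAC1, the anion channel of guard cells through which stomata close, read 1662 and 3404 in Op leaves, 2074 under WS and 5909 in R, a difference of 1.51 that was 1.82 after centring. ABI4, a transcription factor of ABA signalling, read 555 under WS and 1871 in R, but lay in row 12 and differed by 0.76 after centring. Over the 37 loci measured, 4 read higher and 2 lower.

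Proline metabolism showed 1 of 9 loci past 2-fold, and which locus it was changed with centring. P5CS1, which catalyses the limiting step of proline synthesis, read 4864 and 4991 in Op leaves, 4515 under WS and 3022 in R. PRODH1, the dehydrogenase that degrades proline on rehydration, read 2670 and 4713 in Op leaves, 2699 under WS and 5118 in R, a difference of 0.92 in WT and 0.28 in EL25. PRODH2, its homologue, was the member past 2-fold, at 4263 and 2084 in Op leaves, 3101 under WS and 8699 in R. After centring PRODH1 passed 2-fold in WT, at 1.11, and PRODH2, at 0.68, did not. The R level of PRODH1 was above both Op samples, by less than 2-fold against each. The C and S1 bZIP factors, among them regulators of PRODH1, had 1 of 9 loci past 2-fold. It was BZIP44, at 3145 under WS and 1566 in R, which differed by -0.75 after centring, and the list median was -0.42, against -0.39 between the 2 Op arrays and -0.17 after centring.

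Of 23 genes of cell wall loosening measured, 4 read lower in R (against 9.02% of all loci) and none higher. XTH17, a xyloglucan endotransglucosylase/hydrolase, read 4807 and 3819 in Op leaves, 5324 under WS and 900 in R. EXPA3, an expansin, read 3495, 3268, 4819 and 970. The R sample was the only low one for both, and the differences of -2.56 and -2.31 became -2.29 and -1.97 after centring. XTH6 read 1491 and 750 in Op leaves, 1709 under WS and 625 in R, so the second Op sample lay near R. EXPA15, at 26766 and 11098, differed by -1.27 and by -0.68 after centring. In EL25 all 4 also read at least 2-fold lower in R, and 6 of 17 loci measured there did. The median of the list was -0.14 in WT and -0.34 after centring.

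Genes of the cell cycle and DNA replication included 3 loci higher (16.7%, against 9.95% of all loci) and none lower out of 18. After centring 1 of them still read higher. CYCB1;2, a B-type cyclin of the entry into mitosis, read 2716 and 2799 in Op leaves, 2047 under WS and 8770 in R. It read 4.28-fold higher in R, with a log2 difference of 1.75 after centring and 2.57 in EL25. CYCB1;1 read 7972, 10844, 5563 and 14928, and its difference of 1.42 was 0.41 after centring. MCM2, a subunit of the replicative helicase, read 3678 under WS and 8054 in R, but 1097 and 8356 on the Op arrays, a wider range than that of the comparison, and differed by 0.99 after centring.

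Photosynthesis genes had 7 of 50 loci higher and 3 lower, with a median of -0.03. RBCS1B, a small subunit of Rubisco, read 2207 and 942 in Op leaves, 1073 under WS and 4555 in R, while its paralogue RBCS3B, singled out after its value was seen, differed by -1.46. The spots of such near-identical paralogues can share target. RBCS1A, a further small subunit gene printed on 3 spots, differed by 1.03, and by 0.87 after centring. FD2, the main leaf ferredoxin, read 575 and 1194 in Op leaves, 461 under WS and 1980 in R. PRK, the phosphoribulokinase of the Calvin cycle, read 601 under WS and 1929 in R. LHCB1.3 read 12590 and 7431. After centring, FD2, RBCS1B and PRK still passed 2-fold, at 1.09, 1.14 and 1.34.

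Scavengers of reactive oxygen had 5 of 30 loci higher and 2 lower. MSD1, the mitochondrial manganese superoxide dismutase, read 1707 and 6226 in Op leaves, 3309 under WS and 16634 in R. FSD3, a plastid iron superoxide dismutase, moved the other way, at 1307 under WS and 325 in R. GR2, a glutathione reductase, read 625 under WS and 2084 in R, but 699 and 1477 on the Op arrays. The 3 loci passed 2-fold in WT after centring too, whereas FSD3 differed by -0.64 in EL25 after centring. DHAR2, a dehydroascorbate reductase, read 421 under WS and 1760 in R, yet 1785 on the second Op array.

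Water channels had 2 of 20 loci higher and 1 lower. TIP2;1, an aquaporin of the vacuolar membrane, read 348 under WS and 1070 in R, and PIP2;6 of the plasma membrane 1753 and 776. PIP2;6 passed 2-fold after centring, at -1.20, and TIP2;1, at 0.68, did not. In EL25 PIP2;6 differed by -0.66, short of 2-fold. Among sugar metabolism loci, 3 of 17 read higher and 2 lower. SPS4F, a sucrose phosphate synthase, read 1607 under WS and 565 in R, and STP13, a hexose importer, 11598 and 4740, a difference of -0.70 after centring. Of the 15 senescence loci measured, SWEET15, a sucrose exporter, read 2164 under WS and 10357 in R, but 2624 and 8521 on the Op arrays. GLN1;1, a cytosolic glutamine synthetase, read 1408 under WS and 358 in R, so that the 2 members past 2-fold differed in opposite directions.

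Hormone lists were mixed. Jasmonate loci gave 2 of 22 higher and 4 lower with a median of -0.43, which became -0.12 after centring. AOS, the allene oxide synthase of jasmonate synthesis, read 5479 and 9154 in Op leaves, 11208 under WS and 4102 in R, and VSP1 and VSP2, storage proteins induced by jasmonate, read 1485 and 5881 under WS and 615 and 2491 in R. Of these 3, VSP1 alone passed 2-fold after centring. Ethylene loci gave 1 of 17 lower, EBF1, an F-box protein that degrades EIN3, at 4590 and 1934, and at -0.90 after centring. Cytokinin loci gave 1 of 14 higher and 3 lower, with the type-A response regulators split between ARR7, at 898 under WS and 2517 in R, and ARR5, at 1024 and 435. ARR7 read 685 and 2759 on the Op arrays, a wider range, and ARR5 differed by -0.87 after centring. Among auxin and brassinosteroid loci, 1 of 14 read higher, IAA3, a repressor of auxin response, which was below background under WS and at least 5.03-fold higher in R. In EL25 IAA3 was also below background under WS, and the bound was at least 1.99-fold higher in R. In the group of low-oxygen genes and endogenous group VII factors, 1 of 13 read higher, RAP2.3 at 2669 and 6827, and 2 read lower, SUS4, a sucrose synthase, at 1772 and 524 and RAP2.12 at 654 and 297. RAP2.3 lay in row 12 and differed by 0.54 after centring, and RAP2.12 by -0.70. In EL25 RAP2.12 lay at background under WS and in R.

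Clock genes gave 2 of 17 loci higher and none lower. GRP7, a clock-regulated RNA-binding protein, read 1793 under WS and 2099 in R, and CCA1, the morning-phased factor of the central loop, read 288 and 460, near background on all 4 WT arrays. FKF1, a blue light receptor, read 4361 and 11775 but differed by 0.42 after centring by sub-grid and by -0.12 after centring in a window of 7 by 7 spots. Heat shock loci gave 1 of 19 higher and 2 lower. HSFB1 read 5599 and 13751, HSFA1A 1402 and 666, and HSP22 18802 and 9322, and none of the 3 passed 2-fold after centring.

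Genes used as constant references differed between the arrays. Of 9 measured, 2 read higher in R and none lower, and their median of 0.45 was the furthest from 0 among the positive lists. PP2AA3, a regulatory subunit of protein phosphatase 2A, read 11217 and 12845 in Op leaves, 6539 under WS and 19169 in R, and still passed 2-fold after centring. UBQ10, a polyubiquitin, read 3194 under WS and 6809 in R and differed by 0.28 after centring. Root markers gave 1 of 12 higher and 3 lower, among them CASP2, a protein of the Casparian strip, at 2380 under WS and 632 in R, and COBL9, a gene of root hairs, at 7465 and 2575. Seed and pollen markers gave 1 of 15 each way, and guard cell, trichome and vascular markers 1 of 7 each way, TRY and GL3, of which TRY differed by 0.71 after centring.

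**Figure D4:**
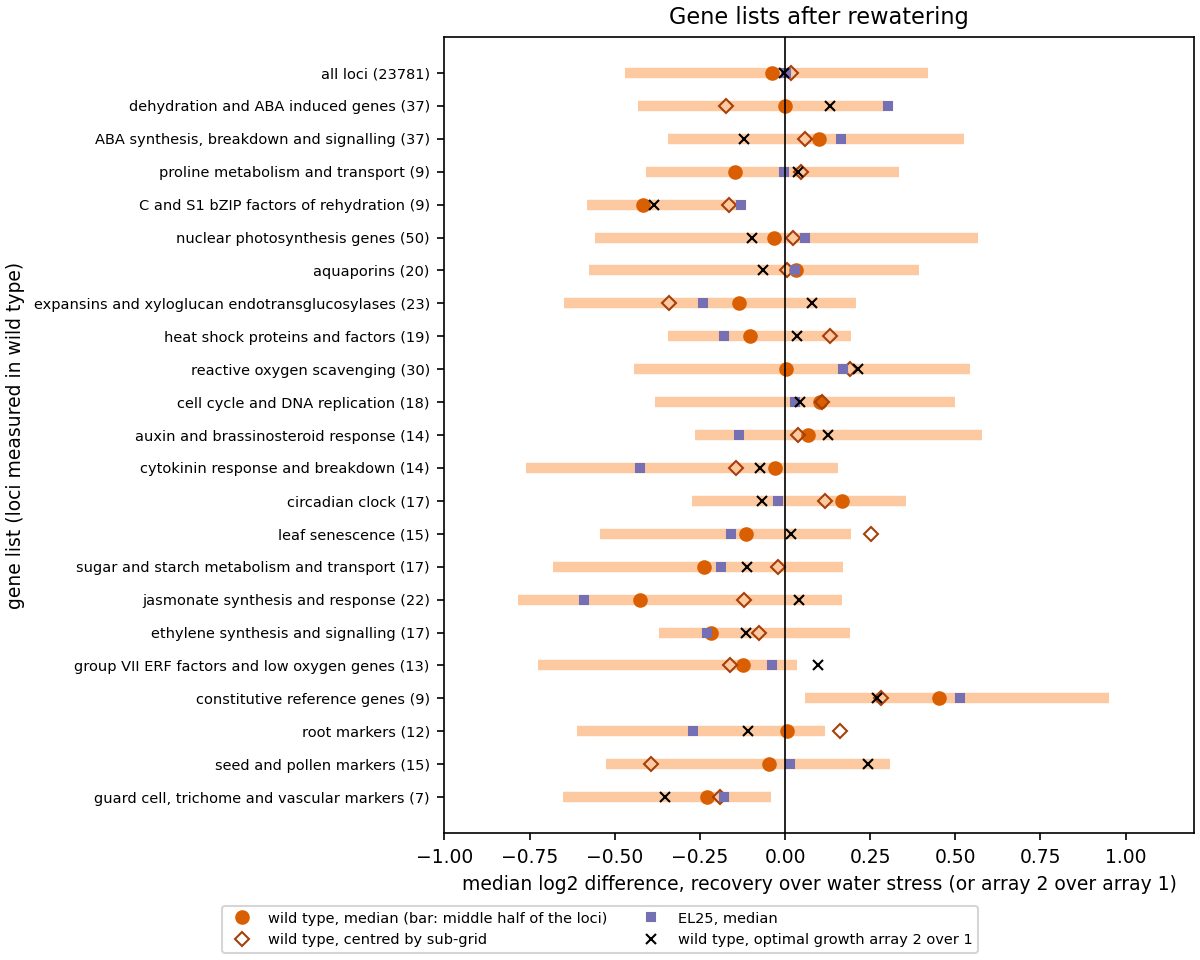
Median log2 difference between recovery and water stress for all loci and for each gene list, with the number of loci measured in WT in parentheses, for WT (circles, with a bar from the lower to the upper quartile of the loci), WT centred by sub-grid (diamonds) and EL25 (squares), and the median difference between the 2 WT optimal growth arrays (crosses). The WT medians of the lists lie between -0.43 for jasmonate and 0.45 for the reference genes, and the median of all loci at -0.04.

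The 11 identifiers with replicate spots were printed on 12 spots each or, for ACT2, on 24, and showed how far the spots of 1 identifier differed within the slides. Whether these spots carry the same oligonucleotide was not tested. All 144 spots lay in the last line of their sub-grid. Their levels held together, with 84.0% of the variance under WS lying between identifiers. UBL5, a ubiquitin-like protein, read between 9322 and 20135 on its 12 spots, and TUB1, a beta-tubulin, between 263 and 671. Their differences between R and WS held together less, with 18.0% of that variance between identifiers and a pooled SD of 1.01 within them, against an SD of 0.80 over all loci compared. The spot pattern followed the slide. AT5G46430, described in the files as ribosomal protein L32, read lower in R on its 8 spots in sub-grid rows 3 to 8, by 1.32 to 2.88 on the log2 scale, and higher on its 4 spots in rows 11 and 12, by 1.32 to 2.18. ACT2, the actin often used as a reference, ran from -2.02 to -0.16 in rows 1 to 4 and from 0.94 to 2.63 in rows 11 and 12. Of the 5 identifiers with spots inside and outside rows 11 and 12, all had a higher mean inside. For RPS9, TUA1 and cpHsc70-2, described in the files as a heat shock protein 70, the difference was less clear. Each also had a positive mean in rows 5 to 8 (0.35, 0.24 and 0.12). In rows 11 and 12 all 4 RPS9 spots lay at background under WS, and the cpHsc70-2 spots ran from -0.693 to 1.995. UBL5, which had no spots in rows 11 and 12, ran from -0.32 to 0.78, with none of its spots past 2-fold. For the 2 Op arrays the same 144 spots gave a pooled SD of 0.51.

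**Figure D5:**
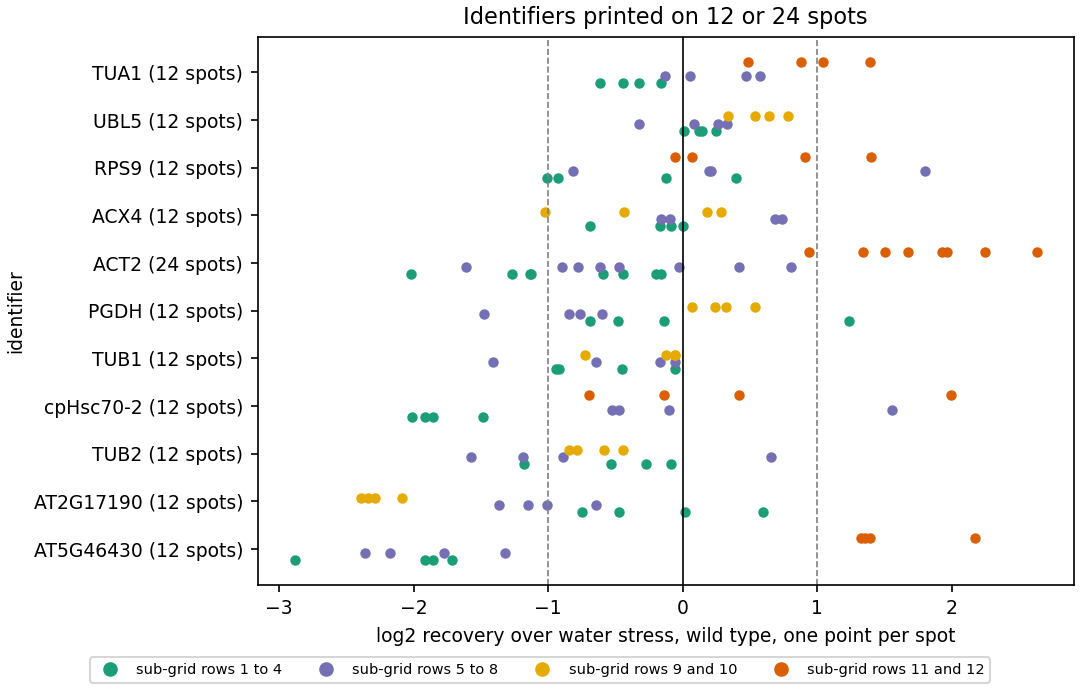
Log2 difference between recovery and water stress in WT leaves for each of the 144 spots of the identifiers printed on 12 or 24 spots, with 1 point per spot, coloured by sub-grid row; dashed lines mark 2-fold. AT5G46430 spans -2.88 to 2.18 and ACT2 spans -2.02 to 2.63, and the 5 identifiers with spots in rows 11 and 12 have a higher mean there than in the other rows.

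Within the 15065 loci above background in both channels of both slides, the change from WS to R had an SD of 0.78 in WT and 0.90 in EL25, whereas the difference between the 2 changes had an SD of 0.28. Taken with its sign, the change in WT lay above that in EL25 by 2-fold or more at 6 loci, and below it by 2-fold or more at 5. ARF10, an auxin response factor, was among the first, at 2851 under WS and 1307 in R in WT and at 1557 and 331 in EL25. ARF10 fell less in WT, by a difference of -1.13 that was -0.78 after centring, than in EL25, at -2.24. AT3G56410 had the largest gap. It read 4368 and 4735 in WT but 1319 and 11416 in EL25, and lay in the sub-grid of row 1 and column 1, as did 2 others of the 5. These loci were chosen after their values were seen.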

How the data were processed

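The raw spot tables give the mean intensity and local background of each dye, and these intensity values were used as deposited by the authors, with no normalization. Background was subtracted, and the 4 WT Cy3 channels (2 Op, WS, R) were quantile scaled to each other, as were the 3 EL25 Cy5 channels. A spot was above background past the 95th percentile of 510 empty spots, and lower levels were raised to the lowest scaled signal above background (263 under WS and 253 in R for WT), which gives "at least" folds. Log2 levels were averaged over the spots of an identifier and the identifiers of a locus. WS and R had 1 array each and Op had 2. No test across genes was made, although the Op pair leaves 1 degree of freedom for the spread, and the number of arrays limits the precision. The labels do not say whether the 2 Op samples came from separate plantings.

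The authors' normalized intensity tables of the WS and R arrays were used for 1 check only. In the table recorded for WS, 100% of 25878 transcripts matched the R scan within 1 unit and 0.274% the WS scan, and the reverse held for the other, so these tables are exchanged. The study's methods give another plant age and length of stress than the labels, and the labels were followed.

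Named loci were the 10 largest differences each way above background in all 4 channels, up to 5 of each path, 2 to 4 of each list, and 12 loci of ABA, proline, photosynthesis and the clock. Members, lists and rules were chosen with earlier results of these data known. Symbols came from the files or from RefSeq (TAIR10.1), in which 25818 loci were found, and coordinates are not printed because the files use older gene models. Alternatives changed scaling, background, detection, spots, threshold and position. Python 3.11.15, NumPy 2.4.6, pandas 2.3.3 and limma 3.58.1 in R 4.3.3 (loess, Aquantile, normexp with offset 50) were used, and the procedure was tested on simulated data.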

Additional observations from a re-analysis of the deposited data

Results flagged for a closer look

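Among loci above background in both channels of both slides, 3 had differences between R and WS of opposite sign in the WT and EL25 channels, with each difference at least 0.5 (log2) and a gap of at least 1 between them. With 1 array per state the difference between the genotypes was not tested. TOPII, a DNA topoisomerase II, read 17378 under WS and 10473 in R in WT and 10738 and 17063 in EL25, so that the WT difference minus the EL25 difference was -1.40. AMT1;1, an ammonium transporter, read 1269 and 877 in WT and 417 and 599 in EL25, a gap of -1.05. AT4G20460 read 430 and 953 in WT and 491 and 331 in EL25, a gap of 1.72. Each was printed on 1 spot. After centring by sub-grid the WT and EL25 differences were -1.08 and 0.12 for TOPII, -0.50 and 0.32 for AMT1;1 and 0.21 and -1.55 for AT4G20460, so that none of the 3 still had both differences at 0.5 or more.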

How the results depend on the processing

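Counts are given in the order higher in R in WT, lower in WT, higher in EL25, lower in EL25, reversed after a rise, reversed after a fall, kept rising and kept falling. They were 2366, 2146, 2338, 2168, 104, 142, 17 and 6 as reported. With a 3-fold threshold they were 830, 562, 939, 657, 5, 19, 0 and 0. With a detection limit at the 99th percentile of the empty spots they were 1198, 672, 2101, 721, 22, 55, 0 and 0. Centring by position was chosen after seeing the data. Centring by sub-grid gave 1333, 1175, 1189, 1111, 54, 65, 8 and 2, and centring in a window of 7 by 7 spots gave 1138, 996, 1035, 882, 38, 49, 6 and 3. The cause of the slide pattern was not tested. Loess with Aquantile raised the reversals to 176 and 215, median scaling left 3 loci that kept falling, and no background correction and normexp each left 11 that kept rising, while all other counts under these 4 settings, and all counts with 1 spot per locus or with loci above background on all arrays, stayed within 1.5 times of those reported. Leaving out either Op array gave 217 to 330 loci reversed after a rise, 321 to 538 after a fall, 40 to 92 that kept rising and 25 to 60 that kept falling, because a locus then had to differ from 1 Op array in place of 2.

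Among the 152 named loci, 10 changes of sign were found. The 99th percentile limit gave 0.48 for EXPA18 (AT1G62980), 0.51 for AT3G18600, 0.083 for SPS4F (AT4G10120), 0.28 for HSFA1A (AT4G17750), 0.63 for AT5G03830, 0.38 for FSD3 (AT5G23310), 0.20 for VSP1 (AT5G24780) and 0.27 for GLN1;1 (AT5G37600). Levels under that limit were raised to it, and it lay at 1084.8 under WS and 1701.4 in R. Window centring gave -0.12 for FKF1 (AT1G68050) and -0.19 for AT5G05020. No paired analysis was possible because WS and R had 1 array each. Signal over background set the lower limit, since 3690 loci under WS and 3470 in R lay at background in WT, where a difference is a bound.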
